A study of Mactra quadrangularis with 2 samples.

Results

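The tyrosinase-like unigenes described here are 3 assembled transcripts, Unigene44351_All, CL1241.Contig1_All and CL16350.Contig2_All, out of 124752 unigenes measured in pooled digestive glands of a marine clam, Mactra veneriformis, entered under the organism name Mactra quadrangularis. The ending _All is left out from here on. They were chosen by their identifiers, and each has tyrosinase in a deposited protein description. Descriptions were deposited only for unigenes that the authors had called as different between the libraries, so the choice rests on the same values that are described below, and these values are given as a description with no test. Clams of the treated group were kept for 3 days in seawater with BDE-47, a polybrominated diphenyl ether flame retardant, at a nominal 5 µg/L, carried in DMSO at 0.05% by volume. Control clams received DMSO alone at 0.05%, so the solvent is common to both groups. The series text describes 3 replicates of 30 clams per group with the glands pooled for RNA, and the tables hold 1 library per group. The sources used here do not say how the replicates entered each library.

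Tyrosinases are copper enzymes that oxidise phenols such as tyrosine to reactive quinones, which polymerise to melanin or cross-link proteins. Bivalves carry many tyrosinase genes. Several are made in the mantle, the tissue that secretes the shell, and are found in the shell and in its outer organic layer, the periostracum. Related phenoloxidase activity in molluscan blood cells belongs to innate defence.

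Counted fragments numbered 15.6 M for the control library and 15.9 M for the BDE-47 library. Levels are the authors' FPKM values, fragments scaled to the length of the unigene and to the library total. A fold is the ratio of fragments per library total, with an exact 95% conditional binomial interval. The interval covers counting error only, since each group has 1 library and differences between clams or libraries are not in it. The libraries were also amplified by PCR without molecular identifiers, so copies of 1 molecule may be counted as separate fragments. A unigene was counted as higher or lower in BDE-47 when the absolute log2 ratio of FPKM + 0.1 was at least 1, the fragments of both libraries summed to at least 20 and the interval excluded 1. By this rule of size 12.4% of the 89164 unigenes that reached 20 fragments were higher (11092) and 16.2% lower. Every comparison is between 2 libraries with no replicate check. In RNA of a whole gland, more cells of a type and more RNA per cell cannot be told apart.

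The protein matches of the 3 members are not equally firm. Unigene44351, a contig of 5627 bases, best matched a putative tyrosinase-like protein tyr-3 of the oyster Crassostrea gigas with an alignment score of 489.6, as deposited by the authors. Its Swiss-Prot match was a tyrosinase-like protein of the pearl oyster Pinctada maxima, with a score of 173, and its KEGG term was tyrosinase. CL1241.Contig1, of 2524 bases, had the same Nr, Swiss-Prot and KEGG names with an Nr score of 324.7. CL16350.Contig2, of 1731 bases, carried the Nr name tyr-3 with a score of only 93.6. Its Swiss-Prot match was CD209 antigen, a C-type lectin that binds sugars, with a score of 85.9, and its KEGG term was a mannose receptor of the same lectin class. The tyrosinase label of CL16350.Contig2 therefore rests on 1 of its 3 annotations, and sums are given with and without it.

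Unigene44351 was nearly absent from the control library and abundant in the BDE-47 library. Its 24 control fragments correspond to 0.273 FPKM (95% counting interval 0.175 to 0.406), and its 10893 BDE-47 fragments to 121 FPKM (119 to 124). The fold was 444 (299 to 694). In the control 115387 unigenes stood above it by FPKM and in BDE-47 only 506 did, so it moved from above 7.51% of all unigenes to above 99.6% of them.

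CL1241.Contig1 was already measurable in the control. There 64 fragments gave 1.62 FPKM (1.25 to 2.07), against 2331 fragments and 57.9 FPKM (55.6 to 60.3) under BDE-47. It was 35.7-fold higher in BDE-47 (27.8 to 46.5). It is the only contig of its cluster in the table, so the cluster sum has the same value.

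CL16350.Contig2 rested on 13 control fragments, 0.481 FPKM (0.256 to 0.822), and on 949 BDE-47 fragments, 34.4 FPKM (32.2 to 36.6). On its own it was 71.5-fold higher in BDE-47 (41.6 to 135). Its cluster holds 2 more contigs, and they differ in direction. The short CL16350.Contig1, of 282 bases and with no description, had 0 control and 25 BDE-47 fragments. It was 8.16-fold higher against a floor of 3 fragments in the control library, with a lower limit of the counting interval of 6.16. CL16350.Contig3, of 421 bases, had 18 control fragments and 1 BDE-47 fragment, a ratio of 18.4 towards the control (2.90 to 766), but with fewer than 20 fragments it is not counted by the rule of size. Its matches were asialoglycoprotein receptor 1 and C-type lectin domain family 10 member A, both C-type lectins. Summed, the 3 contigs had 31 control and 975 BDE-47 fragments, a fold of 30.8 (21.6 to 45.6), which is less than the value of CL16350.Contig2 alone because 18 of the 31 control fragments lie on CL16350.Contig3.

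**Figure D1:**
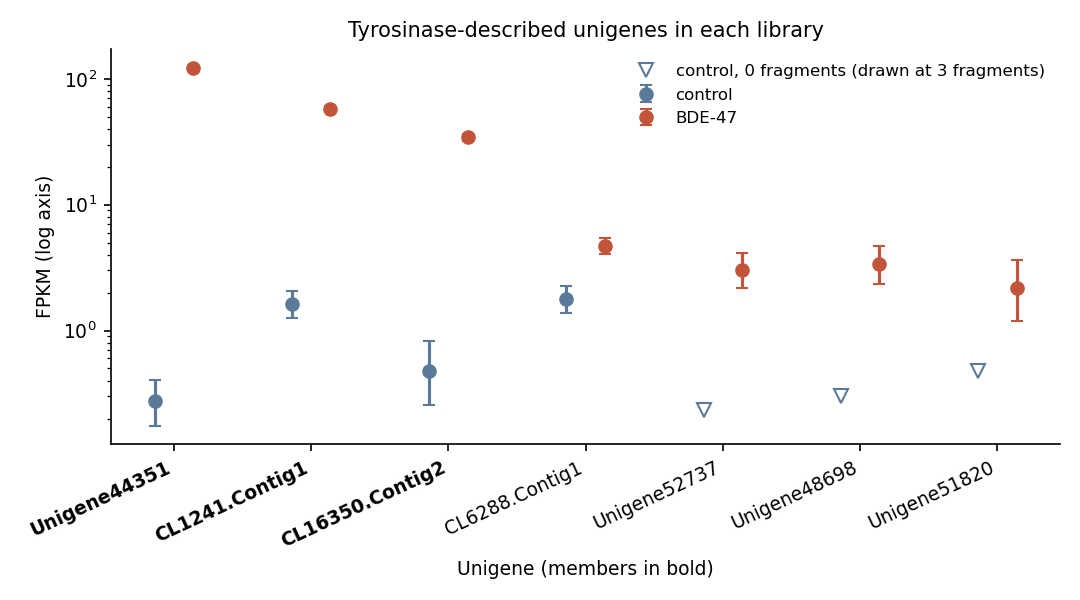
FPKM of the 7 unigenes with a tyrosinase description in the control (blue) and BDE-47 (red) libraries on a log axis, with 95% counting intervals and the 3 members in bold; open triangles mark unigenes with 0 control fragments, drawn at the FPKM of 3 fragments. Unigene44351 goes from 0.273 to 121 FPKM, and the BDE-47 value lies above the control value for each of the 7.

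The members did not keep their order between the libraries. In the control, CL1241.Contig1 was the highest of the 3, and the intervals of Unigene44351 and CL16350.Contig2 overlapped. In BDE-47 the order was Unigene44351, CL1241.Contig1 and CL16350.Contig2, with no overlap of intervals. The fold of Unigene44351 lay above those of the other two with no overlap, and the folds of CL1241.Contig1 and CL16350.Contig2 overlapped. The 3 members together had 101 control and 14173 BDE-47 fragments, and Unigene44351 made up 23.8% of the former and 76.9% of the latter. Without CL16350.Contig2 the sums were 88 and 13224 fragments, a 147-fold ratio (119 to 184), against 137-fold (113 to 169) with it.

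Another 4 called unigenes also carried a tyrosinase description, and all 4 had the oyster tyr-3 name. CL6288.Contig1, of 2472 bases and with a tyrosinase match in Swiss-Prot and KEGG too, had 69 control fragments (1.79 FPKM) and 185 BDE-47 fragments (4.69 FPKM), a fold of 2.63 (1.98 to 3.51). Its control level overlapped that of CL1241.Contig1 in counting interval, yet in BDE-47 CL1241.Contig1 stood at 57.9 FPKM and CL6288.Contig1 at 4.69. The 2 unigenes are alike in length and annotation, and their folds do not overlap.

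The remaining 3 were absent from the control counts. Unigene52737 had 0 and 40 fragments and was 13.1-fold higher against a floor of 3 fragments in the control library. The lower limit of its counting interval was 10.1. Unigene48698 had 0 and 34 fragments, 11.1-fold higher against the floor (lower limit 8.54). Unigene51820 had 0 and 14 fragments, 4.57-fold higher against the floor (lower limit 3.25), and fell under the minimum of 20 fragments. Their BDE-47 levels of 3.03, 3.36 and 2.16 FPKM had overlapping intervals. The floor of 3 control fragments stands for 0.232 FPKM in Unigene52737, 0.303 in Unigene48698 and 0.473 in Unigene51820. Unigene51820 shared its best oyster entry with CL1241.Contig1, and Unigene48698 shared its own with CL6288.Contig1. Whether such a pair is 2 genes or pieces of 1 transcript was not tested.

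Of the 7 tyrosinase-described unigenes, 6 were higher by the rule of size, none was lower and 1 was under the minimum. This count reads against 36.1% higher and 63.9% lower among the 4077 described, called unigenes past the rule. The authors' deposited table called 6.09% of all unigenes up, with a false discovery rate of at most 0.001 and a log2 ratio of at least 1, so a tyrosinase transcript that did not differ would carry no description and was not counted here. Of the 7, the nearest to these limits were CL6288.Contig1 with a log2 ratio of 1.39 and Unigene51820 with a false discovery rate of 0.000429 in the authors' deposited table. What lay just outside the limits was not annotated in the tables used here.

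**Figure D2:**
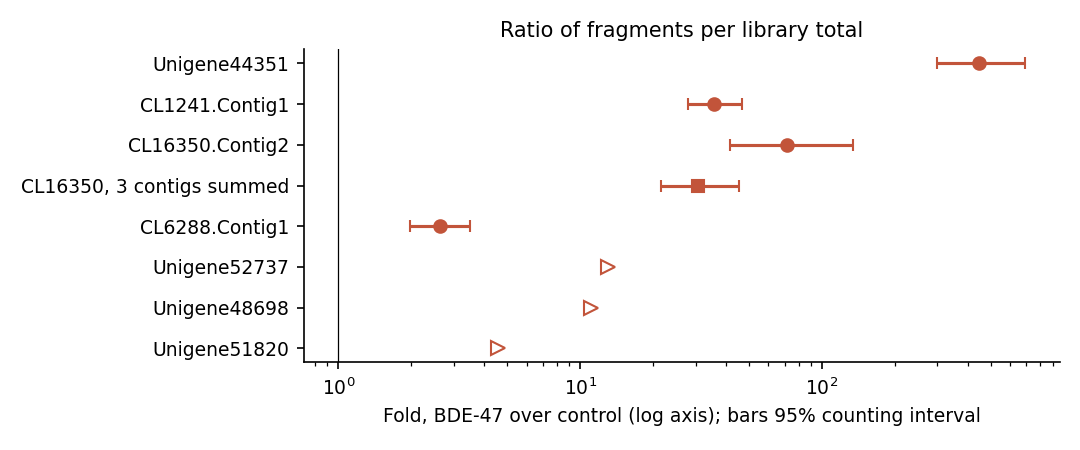
Fold of fragments per library total, BDE-47 over control, on a log axis, with 95% counting intervals. The square is the sum of the 3 contigs of cluster CL16350, and open triangles are folds against a floor of 3 control fragments, drawn without an interval. Among the unigenes counted in both libraries the fold of 444 for Unigene44351 is highest, with no overlap of intervals, and that of CL6288.Contig1 lowest at 2.63. The folds at the open triangles have no upper limit.

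Across all unigenes with at least 20 fragments the median log2 ratio of FPKM + 0.1 was -0.11, and it was 8.35 for Unigene44351, 5.89 for CL16350.Contig2 and 5.07 for CL1241.Contig1. Only 38 of the 89164 unigenes, Unigene44351 included, had a log2 ratio at least as high as Unigene44351, and only 3 of those had at least as many fragments in BDE-47. The same counts, each with the member included, were 418 and 36 for CL16350.Contig2 and 786 and 19 for CL1241.Contig1.

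**Figure D3:**
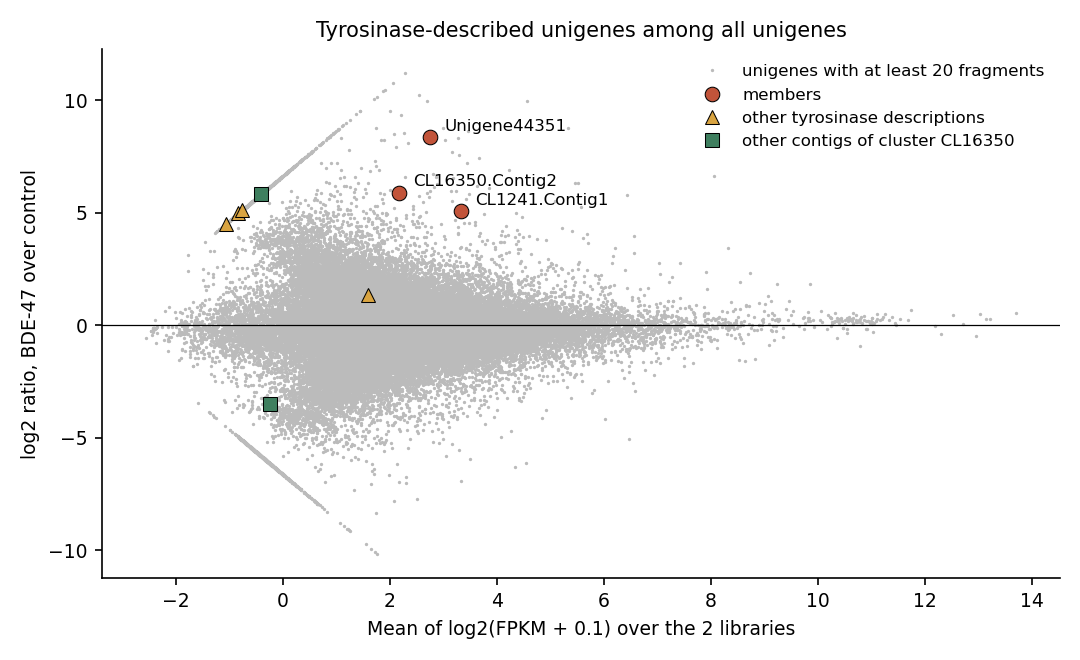
Log2 ratio of BDE-47 over control against the mean log2 level of the 2 libraries for the 89164 unigenes with at least 20 fragments (grey), with the members (red), the other tyrosinase descriptions (yellow) and the other contigs of CL16350 (green) marked; Unigene51820 and CL16350.Contig3 are drawn although they are under 20 fragments. The 3 members lie in the upper part of the grey points, with log2 ratios of 8.35, 5.89 and 5.07, and 786 unigenes, the members included, are at or above the lowest of these.

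The described unigenes most alike in level over the 2 libraries were taken as those at the smallest distance in log2(FPKM + 0.1), with 3 per member. Over only 2 libraries this measures a similar pair of levels and nothing more. For Unigene44351 they were a mucin-like unigene (Unigene49441, 3 and 1881 fragments), a Sushi, von Willebrand, EGF and pentraxin domain unigene (Unigene56698, 30 and 12117 fragments) and a unigene resembling GTPase IMAP family member 7 (CL20266.Contig1, 4 and 2728 fragments). For CL16350.Contig2 they were an uncharacterised oyster protein (Unigene55283, 13 and 1049 fragments), a cartilage intermediate layer protein 2 (Unigene54782, 22 and 1183 fragments) and a unigene named beta-hexosaminidase whose Swiss-Prot match is a spicule matrix protein (Unigene45034, 37 and 1406 fragments). Spicule matrix proteins are skeletal proteins of sea urchins. For CL1241.Contig1 they were an uncharacterised oyster protein (Unigene13412, 21 and 527 fragments), veliger mantle 1 of the abalone Haliotis asinina (Unigene27948, 58 and 1424 fragments) and an interleukin-17D-like unigene (CL3997.Contig1, 93 and 2020 fragments).

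The 2 described laccases, other copper enzymes that act on phenols, were lower in BDE-47. So were 63.9% of the described, called unigenes past the rule, and a laccase that did not differ would carry no description. The list of copper oxidases held 9 described unigenes, the 7 tyrosinases and 2 laccases, which are multicopper oxidases that also oxidise phenols. A laccase 1-like contig (CL3378.Contig2) had 3894 control and 1295 BDE-47 fragments, 63.0 and 20.5 FPKM, and was 3.07-fold lower (2.88 to 3.27). The 6 contigs of its cluster summed to 4112 and 1392 fragments. A laccase-2-like unigene (Unigene35328) had 771 and 224 fragments, 22.5 and 6.41 FPKM, and was 3.52-fold lower (3.03 to 4.10). In the control the laccase 1-like contig was therefore at a level far above every tyrosinase-described unigene, and in BDE-47 Unigene44351, CL1241.Contig1 and CL16350.Contig2 each stood above both laccases.

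Tyrosine is also the source of catecholamines and their invertebrate counterparts, and the list for tyrosine and catecholamine metabolism held 8 described unigenes, 6 higher and 2 lower, with a median log2 ratio of 2.96. It held no phenylalanine or tyrosine hydroxylase and no dopa decarboxylase. The higher ones were named for DBH-like monooxygenases or dopamine beta hydroxylase, copper enzymes of the family that in vertebrates makes noradrenaline from dopamine. CL1885.Contig2 had 0 control and 473 BDE-47 fragments, 154-fold higher against a floor of 3 control fragments (lower limit of the counting interval 125). CL1885.Contig1 had 2 and 447, a ratio of 219 (60.2 to 1813). The 3 contigs of that cluster summed to 104 and 1200 fragments, a log2 ratio of 3.44. The lower ones were another DBH-like contig (CL6979.Contig3, 909 and 215 fragments, 4.32-fold lower), whose cluster of 3 contigs summed to a log2 ratio of -0.15, and tyramine beta-hydroxylase (Unigene12428), which makes octopamine in invertebrates, with 257 and 91 fragments, 2.88-fold lower (2.26 to 3.70). The names are not equally firm here either. CL19840.Contig3, with 7320 and 15598 fragments most of the list's total, had chondroitin proteoglycan 2 as its Swiss-Prot match and a mucin as its KEGG term. The Swiss-Prot matches of CL6979.Contig3 and Unigene51490 were Protein TsetseEP and Temptin. Without these 3 the list had 4 higher and 1 lower, with 363 and 1360 fragments. Summed by cluster, the 8 made 3 higher, 1 lower and 2 not past the rule. Of all clusters with at least 20 fragments 10% were higher, but these include clusters with no called unigene, so the share is not a like background. The unigene counts of this list read against 36.1% higher and 63.9% lower among the described, called unigenes past the rule.

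The list of peroxidases and cross-linking oxidases had 7 higher and 7 lower of the 14 with at least 20 fragments. Its wording also took in 3 enzymes that remove peroxides, 2 glutathione peroxidases (Unigene54325, higher, and CL980.Contig5, lower) and a thioredoxin peroxidase (CL5482.Contig1, lower). Without them 6 were higher and 5 lower. Both counts read against 36.1% higher and 63.9% lower among the described, called unigenes past the rule. Dual oxidase, a membrane enzyme that makes hydrogen peroxide, was among the higher ones. CL2732.Contig1 had 68 and 255 fragments, 3.67-fold higher (2.80 to 4.87), and dual oxidase maturation factor 1 (Unigene22781), which dual oxidase needs to reach the membrane, had 64 and 252, 3.86-fold higher (2.92 to 5.16). The dual oxidase contig with the most fragments (CL13272.Contig3, named after its values were seen) had 3233 and 10638, 3.22-fold higher (3.10 to 3.35), but its cluster of 3 contigs, with a log2 ratio of 0.83, was not past the rule. Among the lower ones were a peroxidasin, which cross-links basement membrane collagen (Unigene68588, 99 and 9 fragments, 11.2-fold lower), and lysyl oxidase-like protein 2, a copper enzyme that cross-links collagen (CL1876.Contig5, 321 and 94 fragments, 3.49-fold lower, cluster log2 ratio -0.82). The pigment list matched only 2 ribonuclease P subunits by chance of wording, both higher, and so held no pigment gene.

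**Figure D4:**
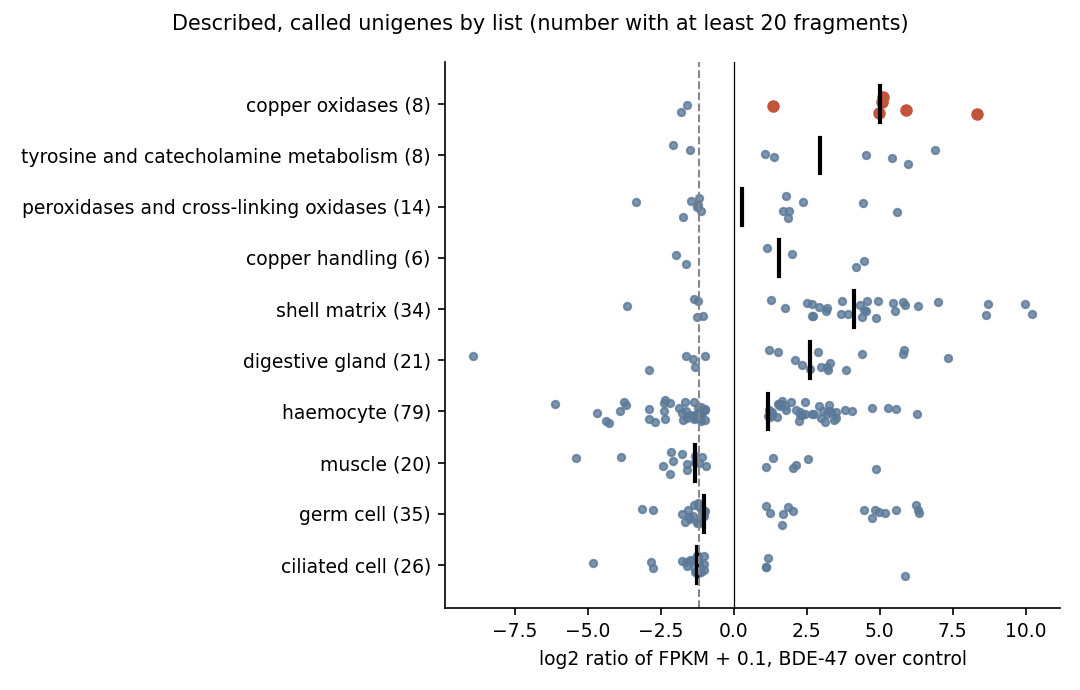
Log2 ratio of FPKM + 0.1, BDE-47 over control, of each described unigene with at least 20 fragments, by list, with the number in brackets; tyrosinases are red, black bars are list medians and the dashed line is the median of all described, called unigenes, -1.19. In the copper oxidase list the tyrosinases lie to the right of 0 and the 2 laccases to the left; gaps around 0 reflect that only called unigenes have descriptions.

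The list of shell matrix unigenes was drawn up for proteins that shell-secreting epithelium such as the mantle lays down. Of its 34 described unigenes 29 were higher and 5 lower, with a median log2 ratio of 4.11, and their control fragments summed to 7994 and their BDE-47 fragments to 65671. Summed by cluster, 28 were higher, 2 were lower and 3 were not past the rule. The unigene counts read against 36.1% higher and 63.9% lower among the described, called unigenes past the rule. In the control 15 of the 34 had at most 3 fragments and 5 of these had 0, namely a shematrin-like unigene (Unigene55453), 2 silk-like unigenes (Unigene54343 and Unigene45773), a chitin-binding protein (Unigene54340) and a chitin deacetylase (Unigene52001). Of all 124752 unigenes, called or not, 119178 had at least 1 fragment in the control. An amelogenin-like unigene (CL7923.Contig1), named for a vertebrate enamel protein, had 2 and 5909 fragments, and a unigene resembling PIF, a matrix protein of nacre (Unigene56099), had 16 and 18847. The lower ones were 2 perlucin-like contigs with C-type lectin matches (CL12208.Contig3, 305 and 23 fragments, and CL1305.Contig1, 127 and 49), a PIF-like contig (CL19581.Contig5, 1298 and 545) and 2 carbonic anhydrases (CL3187.Contig2, 2690 and 1158, and Unigene27262, 2416 and 1168). Summed by cluster, the log2 ratio was 0.82 for CL19581, -1.95 for CL12208, -0.72 for CL1305 and -0.81 for CL3187. Of the 34, 9 are chitinases, all higher, and 6 are carbonic anhydrases, 4 of them higher. Both kinds of enzyme are also made in tissues other than the mantle. Without these 15 the list had 16 higher and 3 lower, with 2185 and 59055 fragments. Of the latter, 18847 lay on Unigene56099 and 17154 on a cartilage intermediate layer protein contig (CL7653.Contig3). Another 9354 lay on a PIF-like unigene (Unigene41963) and 5909 on CL7923.Contig1, so the sum follows these unigenes. The part of shell-secreting tissue in the tyrosinase levels was not tested.

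The marker lists of other cells, too, hold described, called unigenes only, and their counts read against the same 36.1% higher and 63.9% lower. Of 24 digestive gland enzymes 15 were higher and 6 lower, and they summed to 19575 control and 11643 BDE-47 fragments. Of these, 17963 control and 9135 BDE-47 fragments lay on 1 cathepsin L-like contig, a lysosomal and digestive protease (CL2966.Contig2), so the sums follow this contig. Its level was 391 FPKM without and 195 FPKM with BDE-47, so this digestive enzyme was abundant in both libraries. Its cluster of 6 contigs had a log2 ratio of -0.32. The highest ratios were those of a trypsin that best matched a copepod (Unigene55748, 0 and 198 fragments) and an alpha-amylase (Unigene55312, 0 and 120), and the lowest those of a trypsin-like contig (CL3006.Contig4, 210 and 0, cluster log2 ratio 0.41) and an alpha-L-fucosidase (CL453.Contig2, 154 and 49, cluster log2 ratio -0.09), among enzymes with at least 100 fragments. The haemocyte list, for the blood cells that carry phenoloxidase activity, had 40 higher and 37 lower of 86, with 15594 and 23179 fragments. By wording it also took in disintegrin metalloproteinases (such as Unigene58928 and CL16471.Contig3) and plectin-1 contigs (CL1450.Contig2 and CL1450.Contig3), which are not haemocyte markers. It also held CL16350.Contig3 of a member cluster. Counts of this list without these unigenes were not made. The muscle list had 6 higher and 13 lower of 20, with 4988 and 2653 fragments, but 8 of the 20 were named for non-muscle myosins, amoeba myosins or for calponin homology domains. The other 12 had 3 higher and 8 lower, with 1412 and 933 fragments. The ciliated cell list had 4 higher and 22 lower of 27, with 5294 and 3147 fragments. By wording it took in a flagelliform silk protein (Unigene54343, also in the shell matrix list), 2 cytoplasmic dynein light chains and 2 dynein-related ATPases. The other 22 had 2 higher and 19 lower, with 3676 and 1921 fragments. Of 38 germ cell markers 15 were higher and 19 lower, or 7 and 19 without copepod and ciliate matches. Summed by cluster, the full digestive gland list had 12 higher and 3 lower, and the haemocyte list 28 and 15. The full muscle list had 5 and 10, the germ cell list 9 and 7 and the ciliated cell list 1 and 12. All other clusters of these lists were not past the rule or under its minimum. Fragments were at 0 in the control for 6 digestive gland, 4 haemocyte and 11 germ cell markers. They were at 0 for none of the 12 muscle and 22 ciliated cell markers left after the muscle and ciliated cell names above were taken out. Of all 124752 unigenes 119178 had at least 1 fragment in the control, but these include uncalled unigenes, so the share is not a like background. The germ cell ones at 0 were vitellogenins that best matched copepods, except CL8951.Contig9, which best matched an Entamoeba protein. Among the digestive gland ones at 0, the trypsins Unigene55748 and CL9824.Contig1 best matched copepods. Among the haemocyte ones at 0, Unigene58928 and Unigene51886 had disintegrin matches. In all 20 called unigenes best matched a copepod, with 102 control and 1924 BDE-47 fragments, and 17 of them had 0 fragments in the control. None of the 7 tyrosinase-described unigenes best matched a copepod. All 7 best matched the oyster, as did 48.9% of all described, called unigenes. The part of these other cells and organisms in the tyrosinase levels was not tested.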

How the data were processed

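RNA of pooled digestive glands, enriched for poly(A), was read by Illumina HiSeq sequencing, per the labels' protocols. The submitters' processing notes name CASAVA 1.5. No source used here names the assembler, the aligner or the counter (not given in the sources used here). Per the file headers, the authors deposited raw counts of fragments per unigene, FPKM, a log2 ratio, p-values with a false discovery rate from a test that is not given, and, for called unigenes, alignment scores of the best protein matches. The deposited log2 ratio sets an FPKM of 0 to 0.001, so it is not used as a fold where a library has 0 fragments. FPKM was recomputed from the counts to within 5e-05. Contigs that share a CL number are taken as 1 cluster, within which reads may have been split.

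Folds, intervals and counts were computed with Python 3.11.15, SciPy 1.17.1 and pandas 2.3.3, and TMM factors with edgeR 4.0.16. The rule of size was tested on simulated data. Replicates were not available, so no test between conditions was run. The named unigenes are the members, all tyrosinase-described unigenes, the contigs of the member clusters, the 3 described unigenes nearest to each member with at least 100 fragments, and up to 2 higher and 2 lower unigenes per list around tyrosinase and for digestive enzymes with at least 100 fragments. Named after their values were seen, or to complete a count, were the 5 lower shell matrix unigenes and those with the largest BDE-47 counts. So were the cathepsin L-like contig and the unigenes left out of a list, or marked in it, for their names or best matches. Lists match words in the Nr or Swiss-Prot name and hold called unigenes only. Their word patterns were adjusted after the matched names had been seen. Members and lists were chosen with earlier results of these data known.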

Additional observations from a re-analysis of the deposited data

How the results depend on the processing

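All 24 recomputed values of the members and their clusters stayed above 0, from 3.60 to 8.74 on the log2 scale. Several repeat, since Unigene44351 and CL1241.Contig1 are each the only contig of their cluster. A pseudocount cannot change the sign of a ratio and a scaling shift of 0.12 is small beside these values, so the sign is no check here. With a pseudocount of 1 FPKM the log2 ratio was 6.59 for Unigene44351, 4.58 for CL16350.Contig2 and 4.49 for CL1241.Contig1. With its cluster summed CL16350.Contig2 had 4.83, and with FPKM in place of fragments summed over contigs the cluster CL16350 had 3.60, as its short contigs weigh more. Setting the median ratio of all unigenes to 1 shifts log2 ratios up by 0.12 and changed no direction of a member. Over all unigenes, 17626 were higher with no minimum of fragments, 2789 higher and 3988 lower with a minimum of 100, and 4381 higher and 5164 lower at an absolute log2 ratio of at least 2.

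At that ratio the copper oxidases had 0 lower, tyrosine and catecholamine metabolism 1 lower, peroxidases 3 higher and 1 lower, copper handling 2 higher and 0 lower, pigment 1 higher and shell matrix 1 lower. With a minimum of 100 fragments peroxidases had 3 higher, copper handling 2 higher and pigment 1 higher. Summed by cluster, tyrosine and catecholamine metabolism had 3 higher and 1 lower, peroxidases 4 lower, copper handling 2 higher and shell matrix 2 lower. Leaving out unigenes whose names are of another kind was chosen after seeing the data and gave 16 higher and 3 lower for shell matrix, and 1 lower for tyrosine and catecholamine metabolism. Leaving out copepod and ciliate matches was also chosen then and lowered the higher counts of germ cell markers to 7 and of digestive gland markers to 13. No paired analysis was possible because each group has 1 library. Depth limits the control values: 24, 64 and 13 fragments carry the 3 folds.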

Other observations

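Other copper proteins showed both directions. The copper handling list held 7 described unigenes, with 4 higher and 2 lower in BDE-47 among the 6 with at least 20 fragments. These counts read against 36.1% higher and 63.9% lower among the described, called unigenes past the rule. A membrane primary amine oxidase (Unigene45746), a copper enzyme that oxidises amines, had 52 and 222 fragments and was 4.18-fold higher (3.08 to 5.77), while a related amine oxidase (Unigene19315) had 131 and 42 fragments and was 3.19-fold lower (2.23 to 4.62). A further amine oxidase (CL18487.Contig2) was 2.20-fold higher alone, and its cluster of 2 contigs had a log2 ratio of 0.36. The cytochrome c oxidase copper chaperone (CL19902.Contig2), which carries copper to the respiratory chain, had 516 and 130 fragments and was 4.05-fold lower (3.34 to 4.95). Its cluster of 2 contigs had 578 and 242 fragments, a log2 ratio of -1.28. The 2 contigs named extracellular copper/zinc superoxide dismutase (CL3233.Contig1 and CL3233.Contig2) had 0 fragments in the control and 39 and 49 in BDE-47, and were named after their values were seen.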
